A study of Mus musculus with 2 samples.

Results

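The transcripts described here are those of the mouse mitochondrial genome, a small circular chromosome with its own genes for ribosomal RNA, transfer RNA and respiratory chain subunits. All genes with a name beginning in mt- on the mitochondrial chromosome of the GENCODE M21 annotation were taken, which gave 37 of 43346 Ensembl genes in the deposited gene tables. They comprised 2 rRNA genes, 13 protein-coding genes and 22 tRNA genes. Transcripts of 28 genes are copied from the heavy strand of the circle and those of 9 genes, mt-Nd6 and 8 tRNA genes, from the light strand.

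The RNA came from forebrain of B6NCrl mouse embryos, a C57BL/6N substrain, at embryonic day 11.5, with healthy embryos of both sexes pooled. The series held 1 group of 2 total RNA-seq libraries. Replicate 1 was made from 109 embryos and replicate 2 from 88, which the labels call biological replicates, and each used 10 ng of mirVana-extracted RNA above 200 nucleotides, spike-in RNAs and a SMART-seq protocol. No other tissue, age or treatment was present, so the data give levels in this tissue and the spread between its 2 pools.

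Mitochondrial DNA is transcribed from promoters in its control region into long RNAs that span most of each strand. Many tRNA genes lie between the larger genes, and excision of the tRNAs releases the rRNAs and mRNAs. The mRNAs encode subunits of respiratory complexes I, III, IV and V, while the remaining subunits and all factors of mitochondrial transcription and RNA processing are encoded in the nucleus. Over evolution, stretches of mitochondrial DNA have also been inserted into nuclear chromosomes, where they persist as pseudogenes.

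A stretch of chromosome 1 bears directly on the measurement. Of the annotated nuclear transcripts, 7 aligned to mitochondrial genes at 99% identity or more, and all 7 were unprocessed pseudogenes on the minus strand of chromosome 1 between 24611535 and 24616197 (mm10), a span of 4663 bases. They followed the order of bases 6390 to 11042 of the mitochondrial chromosome, a span of 4653 bases that runs from the end of mt-Co1 into mt-Nd4. The sequences below show how little separated gene from copy. All are GENCODE M21 transcript sequences of the same build, printed 5′ to 3′. The first pair shows the start of mt-Nd3 and of its copy Gm28438, with the differing base in capitals (T3C, counted from the first base of the gene).
mt-Nd3, chrM:9459-9498, plus strand: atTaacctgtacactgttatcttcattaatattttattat
Gm28438, chr1:24613080-24613119, minus strand: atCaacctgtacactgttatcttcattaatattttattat
The annotated copies of 5 genes also stopped just short of the gene at its 3′ end, whereas that of mt-Co1 reached the last base. That of mt-Nd4 held only the first 876 of its 1378 bases and is not shown. The last 30 bases of those 5 genes follow with the bases absent from the annotated copy in capitals, and then the end of the copy of mt-Co3.
mt-Co2, chrM:7667-7696, plus strand: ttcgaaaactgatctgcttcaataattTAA
mt-Atp6, chrM:8578-8607, plus strand: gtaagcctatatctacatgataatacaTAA
mt-Co3, chrM:9361-9390, plus strand: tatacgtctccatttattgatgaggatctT
mt-Nd3, chrM:9777-9806, plus strand: acacaaaaaggattagaatgaacagagTAA
mt-Nd4l, chrM:10144-10173, plus strand: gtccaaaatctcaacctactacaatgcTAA
Gm28437, chr1:24613189-24613218, minus strand: ctatacgtctccatttattgatgaggatct
A less similar copy on chromosome 2 is shown for contrast. Its first 150 bases differed from those of mt-Co1 at 3 positions, in capitals.
mt-Co1, chrM:5328-5477, plus strand: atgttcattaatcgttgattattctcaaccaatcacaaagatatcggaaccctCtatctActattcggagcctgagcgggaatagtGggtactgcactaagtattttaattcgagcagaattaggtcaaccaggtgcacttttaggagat
Gm13340, chr2:22589498-22589647, minus strand: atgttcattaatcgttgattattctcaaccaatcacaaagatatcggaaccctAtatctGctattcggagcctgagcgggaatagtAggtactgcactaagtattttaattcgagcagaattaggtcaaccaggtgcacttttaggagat

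In both tables the effective length of a transcript was its length minus 99, and 0 below 100 nucleotides, so that a transcript was counted over windows of 100 bases. Of the 37 mitochondrial genes, 15 had such windows: both rRNA genes and all 13 protein-coding genes. All 22 tRNA genes, from 59 to 75 nucleotides long, had none and were listed at 0 in both libraries. The RNA was also selected above 200 nucleotides. A 0 for these genes therefore gives no upper limit on tRNA abundance, and 5.12% of all Ensembl genes (2218) had no window either. The tRNA genes with the most and the fewest bases, for leucine and serine, show the size of these RNAs in full.
mt-Tl1, chrM:2676-2750, plus strand: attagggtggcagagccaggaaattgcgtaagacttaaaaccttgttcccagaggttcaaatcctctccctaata
mt-Ts2, chrM:11613-11671, plus strand: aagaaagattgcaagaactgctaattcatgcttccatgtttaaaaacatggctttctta

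The libraries held 23165260 (replicate 1) and 33597028 (replicate 2) expected counts on Ensembl genes, of which 233404 and 350370 lay on mitochondrial genes. Spike-ins took 13.0% and 12.7% of TPM, the length-scaled abundance, so mouse TPM are lower by that share. Of the tissue markers, 5 of 5 forebrain genes reached 1 TPM in both libraries (13.5 to 154 TPM) and 0 of 6 HOX genes of hindbrain and trunk did (0.34 TPM at most). Markers of other cells were present, with 4 of 4 red cell genes between 46.9 and 8726 TPM, 3 of 3 mesenchyme genes between 22.4 and 319.7 TPM and 3 of 3 endothelial genes between 10.4 and 22.6 TPM. Their part in the mitochondrial levels was not tested, and in bulk tissue fewer cells of a type and less RNA per cell cannot be told apart.

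Mitochondrial genes held 2.02% of all TPM in replicate 1 and 2.10% in replicate 2 (2.06% ± 0.0608, mean ± SD, n = 2). By class, the 13 protein-coding genes held 90.7% and 89.9% of mitochondrial TPM (90.3% ± 0.580), and the 2 rRNA genes held 9.30% and 10.1% (9.71% ± 0.580). Protein-coding transcripts in these libraries thus summed to 9.31 ± 0.615 times the rRNAs. How far library preparation, such as cDNA priming or any removal of rRNA, set these shares was not tested. As a share of expected counts, which are not divided by length, rRNA held 17.3% ± 1.09. Detection at 1 TPM in both libraries was reached by 14 of the 15 genes with windows, mt-Nd4l being listed at 0 in replicate 1.

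The rRNA genes encode the RNAs of the small and large subunits of the mitochondrial ribosome. mt-Rnr1, for the small subunit (chrM:70-1024), stood at 429.6 TPM in replicate 1 and 483.1 TPM in replicate 2. mt-Rnr2, for the large subunit (chrM:1094-2675), stood at 1448 and 1647 TPM in the same order. The ratio of mt-Rnr2 to mt-Rnr1 was 3.37 and 3.41 (3.39 ± 0.0271), a narrower spread than that of either gene, since both were higher in replicate 2. Of the protein-coding genes, 5 had a higher mean TPM than mt-Rnr2 and 8 a higher one than mt-Rnr1 as deposited. With the counts of near-identical nuclear copies added, as described further on, mt-Co2 and mt-Co3 also stood above mt-Rnr2. On that scale mt-Nd3 also stood above mt-Rnr1, and so did mt-Nd4l by its mean, with overlapping values.

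The genes of complex V, ATP synthase, had the highest mitochondrial TPM as deposited. With the counts of chromosome 1 copies added, a scale described further on, mt-Co3 stood beside mt-Atp6 and above mt-Atp8. mt-Atp6, a membrane subunit of the proton channel (chrM:7927-8607), stood at 4673 and 4637 TPM in replicates 1 and 2, rank 7 of all Ensembl genes by mean TPM. mt-Atp8, a small subunit that overlaps its start (chrM:7766-7969), stood at 3858 and 4377 TPM, rank 9. The listed values of these genes did not overlap, and their ratio was 1.14 ± 0.108. The deposited credibility intervals, described further on, did not separate them. That of mt-Atp6, 3106 to 4730 TPM in replicate 1 and 3112 to 5302 TPM in replicate 2, contained that of mt-Atp8 each time. Both proteins are translated from a single mRNA, and their genes share 43 bases, shown in capitals at the end of mt-Atp8.
mt-Atp8, chrM:7917-7969, plus strand: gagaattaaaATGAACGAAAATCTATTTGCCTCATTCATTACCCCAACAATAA
With no copy annotated on chromosome 1, mt-Atp8 had no window in common with a nuclear transcript, whereas 579 of the 582 windows of mt-Atp6 were shared with Gm10925.

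Complex IV, cytochrome c oxidase, has its catalytic core encoded by 3 mitochondrial genes. mt-Co1, the subunit with the oxygen-binding site (chrM:5328-6872), stood at 1722 TPM in both libraries (1722 ± 0.177). mt-Co2, which receives electrons from cytochrome c (chrM:7013-7696), stood at 1215 and 1076 TPM in replicates 1 and 2. mt-Co3 (chrM:8607-9390) stood at 917.5 and 1066 TPM. The ranges of the 3 genes did not overlap as deposited, and each has a copy on chromosome 1, described further on.

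Complex III holds a single mitochondrial subunit, cytochrome b. Its gene mt-Cytb (chrM:14145-15288) stood at 2012 TPM in replicate 1 and 2042 TPM in replicate 2, as deposited the highest mitochondrial gene outside complex V (rank 38). It lies at the far end of the heavy strand transcript, after mt-Nd5 on the same strand, and was 7.20 ± 0.145 times as high as mt-Nd5.

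Complex I, NADH dehydrogenase, has 7 mitochondrial subunits, and their levels ran from 1863 ± 18.6 TPM down to a listed 0. mt-Nd1 (chrM:2751-3707) stood at 1850 and 1876 TPM in replicates 1 and 2. mt-Nd4 (chrM:10167-11544) stood at 813.6 and 868.4 TPM, and mt-Nd2 (chrM:3914-4951) at 426.4 and 482.3 TPM. The 3 genes encode subunits of the membrane arm, and their ranges did not overlap one another. mt-Nd5 (chrM:11742-13565), an antiporter-like subunit, stood at 275.6 and 287.8 TPM, below every gene listed so far. mt-Nd3 (chrM:9459-9806) stood at 227.6 TPM in replicate 1 and 88.2 TPM in replicate 2. mt-Nd4l (chrM:9877-10173) was listed at 0 in replicate 1 and stood at 37.9 TPM in replicate 2. These last genes were the lowest of the 15 and had the widest relative spread.

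mt-Nd6 (chrM:13552-14070, minus strand), also of complex I, is the sole protein-coding gene whose RNA is copied from the light strand. It stood at 316.0 TPM in replicate 1 and 351.5 TPM in replicate 2. Of the 12 heavy strand protein-coding genes, 9 had a higher mean TPM than mt-Nd6 as deposited, and the median of the 12 was 1069 TPM. On the scale with copies added, mt-Nd3 (886.7 TPM) and mt-Nd4l (456.6 TPM) also stood above mt-Nd6, and mt-Nd5 alone stood below it. The sum over heavy strand genes was 62.9 times that over light strand genes in replicate 1 and 58.9 times in replicate 2 (60.9 ± 2.84), or 54.9 ± 2.92 times over protein-coding genes alone. The light strand sum was that of mt-Nd6 by itself, as the 8 light strand tRNA genes had no windows. The part of library preparation in the strand ratio was not tested. mt-Nd6 overlaps mt-Nd5 on the opposite strand by 14 bases and was 1.18 ± 0.0528 times as high as it. Strand here is that of the annotated gene, since the strand of the reads in the counting is not given in the sources used here, and reads from RNA antisense to mt-Nd6 cannot be told apart from its own.

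**Figure D1:**
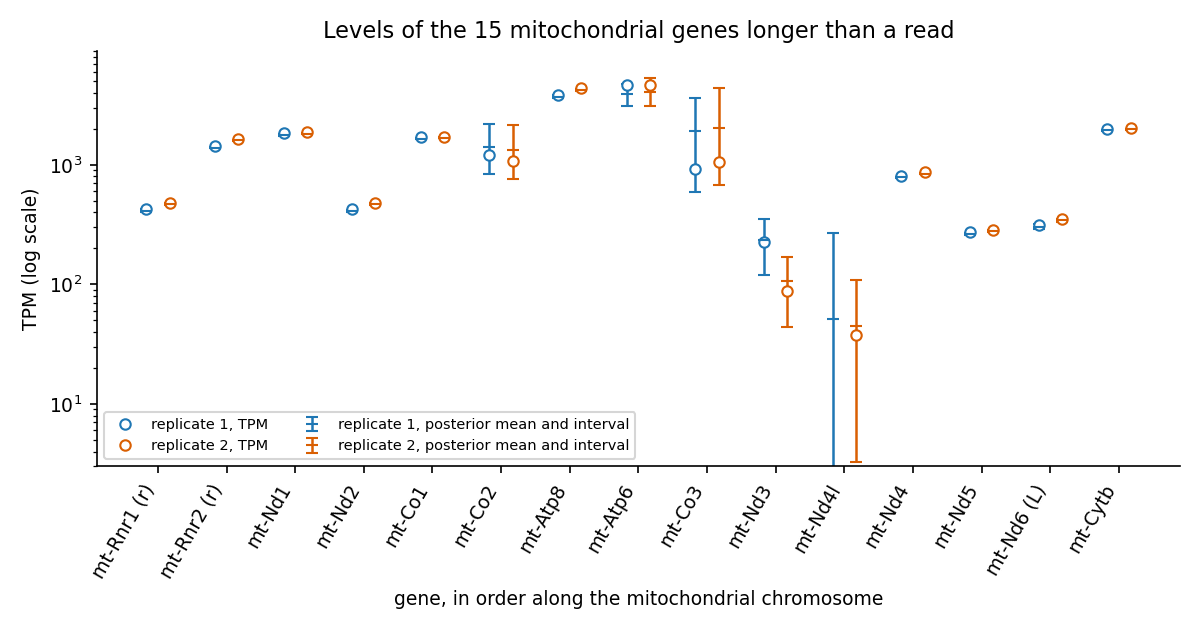
TPM (log scale) of the 15 mitochondrial genes with read windows, in chromosome order, with replicate 1 left in each pair; circles give the deposited TPM, short bars the deposited posterior mean and vertical bars its credibility interval, (r) marks rRNA and (L) the light strand gene. mt-Atp6 and mt-Atp8 stood highest, intervals were wide for mt-Co2, mt-Atp6, mt-Co3, mt-Nd3 and mt-Nd4l and hardly visible for the others, and the interval of mt-Nd4l in replicate 1 runs below the axis.

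The order of mean TPM over the 15 genes as deposited was mt-Atp6, mt-Atp8, mt-Cytb, mt-Nd1, mt-Co1, mt-Rnr2, mt-Co2, mt-Co3, mt-Nd4, mt-Rnr1, mt-Nd2, mt-Nd6, mt-Nd5, mt-Nd3 and mt-Nd4l. Among neighbours in this order, the values of the libraries overlapped between mt-Rnr1 and mt-Nd2 and between no others. With 2 values a gene, separate ranges are a weak criterion. The plot of levels along the chromosome showed no steady course: mt-Nd1 was 1.21 ± 0.0978 times as high as mt-Rnr2, the larger gene before it, and 4.11 ± 0.317 times as high as mt-Nd2, the one after it.

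The chromosome 1 pseudogenes took a large part of the abundance. Together the 7 copies held 9325 TPM in replicate 1 and 10249 TPM in replicate 2, equal to 46.2% and 48.7% of the TPM of all 37 mitochondrial genes (47.5% ± 1.77). Set against the 7 genes they align to, they held 1.03 ± 0.0741 times the TPM and 0.700 ± 0.0403 times the expected counts. Gm28437, the copy of mt-Co3, was the highest at 4518 and 4477 TPM (rank 8), well above the 917.5 and 1066 TPM of mt-Co3 itself. The copy was thus the higher member of that pair in both libraries. Gm29216, the copy of the end of mt-Co1, stood at 1891 and 1935 TPM, and Gm28661, of mt-Co2, at 1232 and 1504 TPM. Lower were Gm10925 of mt-Atp6 at 593.7 and 1060 TPM, Gm28438 of mt-Nd3 at 608.2 and 867.2 TPM and Gm10222 of mt-Nd4l at 483.0 and 405.9 TPM. Gm10925 and Gm28438 were higher in replicate 2 and Gm10222 was lower. Gm28439, whose 876 bases are identical to the start of mt-Nd4, was listed at 0 in both libraries.

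Outside chromosome 1, the copies were at or near 0 in the tables. The 8 other annotated copies with rows, between 90.7% and 97.6% identical and on chromosomes 2, 4, 11 and 13, had at most 12.72 expected counts, and 5 of them had none in either library. Their sum was 1.19 and 0.8 TPM in replicates 1 and 2. Copies outside annotated transcripts were not analysed here, and a further 2 annotated copies, Gm43743 and AC124578.3, had no row in the tables.

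How a pair's counts were divided varied from gene to gene. The mitochondrial gene received 16.9% and 19.3% of the pair's expected counts for mt-Co3 in replicates 1 and 2, and 88.8% and 81.5% for mt-Atp6. It received 77.0% and 76.6% for mt-Co1, 49.8% and 41.8% for mt-Co2 and 27.5% and 9.33% for mt-Nd3. mt-Nd4l received 0% and 8.66%, while mt-Nd4 received 100% in both libraries. Genes that sit side by side in the same copied stretch thus had shares from 0% to 100%.

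**Figure D2:**
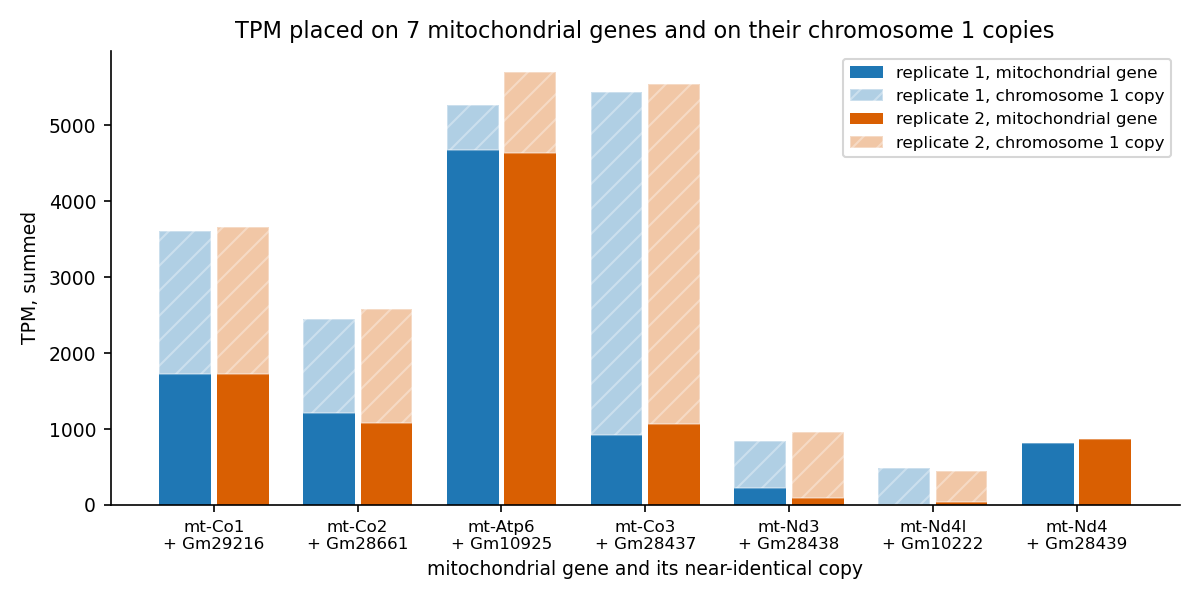
TPM of 7 mitochondrial genes (solid) and of their near-identical chromosome 1 pseudogenes (pale, hatched, stacked on top), with replicate 1 as the left bar and replicate 2 as the right bar of each pair. The copy held more TPM than the gene in both replicates for mt-Co1, mt-Co2, mt-Co3, mt-Nd3 and mt-Nd4l, less than the gene for mt-Atp6 and none for mt-Nd4, and the height of the stack was close between replicates.

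Few read windows could tell the members of a pair apart. Every window of each gene was looked up on both strands in annotated nuclear transcripts. These were the M21 transcripts that aligned to that gene by BLASTN (90% identity and 100 bases or more). mt-Co3 had 1 window of its own out of 685, mt-Co2 and mt-Atp6 had 3 each (of 585 and 582), mt-Nd4l had 3 of 198 and mt-Nd3 had 6 of 249. mt-Nd4 kept 502 of 1279 and mt-Co1 kept 1000 of 1446, and the chromosome 1 copy holds only part of each. The windows that mt-Co1 shared were not all from chromosome 1. Gm13340 on chromosome 2 spans the whole gene, and 1366 of its 1446 windows were absent from mt-Co1. On the nuclear side, Gm29216 had 13 windows of its own and Gm28438 had 3, and the other 5 copies had none. The 4477 TPM or more on Gm28437 therefore rested on sequence that is wholly present in mt-Co3. Of the remaining genes, mt-Nd2 shared 30 of 939 windows with Gm13339 on chromosome 2, and mt-Rnr1, mt-Rnr2, mt-Nd1, mt-Atp8, mt-Nd5, mt-Nd6 and mt-Cytb shared none.

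The deposited uncertainty followed the same division. The tables give a posterior mean and SD for each count and a credibility interval for the TPM, whose level they do not state. For the 7 genes with no shared window, the posterior SD was at most 9.33e-05% of the mean count, and the interval spanned 1.69% to 8.64% of the posterior mean TPM. For the 5 genes with at least 90% of windows shared, the posterior SD was 15.01% to 138% of the mean and the interval spanned 41.6% to 524%. The interval of mt-Co3 ran from 587.9 to 3636 TPM in replicate 1 and from 675.3 to 4410 TPM in replicate 2, and that of mt-Co2 from 835.5 to 2186 TPM and from 762.4 to 2148 TPM. For mt-Nd4l it ran from 0.00122 to 271.5 TPM in replicate 1, where the posterior mean was 51.8 TPM beside a listed TPM of 0, and from 3.24 to 109.3 TPM in replicate 2. Expected counts were whole in both libraries for 9 of the 15 genes (within 0.005), namely the 7 without shared windows, mt-Nd2 and mt-Nd4.

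**Figure D3:**
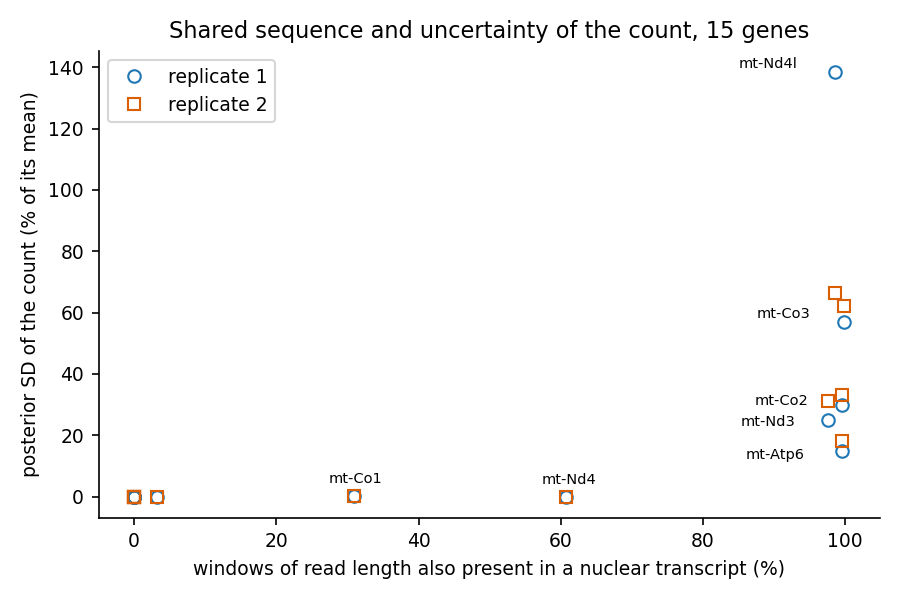
Posterior SD of the expected count as a percent of its mean, against the percent of a gene's 100-base windows that also occur in a nuclear transcript, for 15 mitochondrial genes in replicate 1 (circles) and replicate 2 (squares). Genes at up to 60.8% shared lie near 0, and the 5 genes above 90% lie between 15.01% and 138%.

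The listed TPM was not always inside its own interval. It lay outside for 10 of the 15 genes in replicate 1 and for 9 in replicate 2, against 17.6% and 11.5% of genes with 1000 counts or more in both libraries and 8.38% and 5.57% of genes at 1 TPM or more. In the 7 genes without shared windows, the posterior mean TPM was 0.964 times the listed TPM in replicate 1 and 0.974 to 0.975 times in replicate 2. It was not particular to mitochondrial genes. The nuclear gene Atp5b had posterior means of 1794 and 1718 TPM in replicates 1 and 2, beside listed values of 1858 and 1761 TPM. Hsd17b10, also nuclear, had 127.4 and 129.1 TPM beside 132.0 and 132.4 TPM. Not every nuclear gene had it, since Polrmt had 34.05 and 36.9 TPM beside 33.3 and 36.4 TPM. The cause of this offset was not tested. For mt-Co3 the posterior mean was 1910 TPM in replicate 1 and 2044 TPM in replicate 2, above its listed values by 2.08 and 1.92 times.

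When the copy's counts were added to the gene's and divided by the effective length of the gene, the order changed. On this scale mt-Co3 stood at 5428 and 5536 TPM in replicates 1 and 2 and mt-Atp6 at 5264 and 5692 TPM, so that they overlapped at the top, above mt-Atp8. mt-Co2 followed at 2440 and 2573 TPM and mt-Co1 at 2236 and 2248 TPM, both now above mt-Cytb and mt-Nd1. mt-Nd3 stood at 828.4 and 944.9 TPM, overlapping mt-Nd4, and mt-Nd4l at 475.7 and 437.6 TPM, overlapping mt-Rnr1. mt-Nd5 was the lowest of the 15 on this scale, at 275.6 and 287.8 TPM. mt-Atp6 was then 1.33 ± 0.0454 times as high as mt-Atp8, and mt-Nd4 was 1.85 ± 0.194 times as high as mt-Nd4l, with which it overlaps by 7 bases. The rRNA share was 6.91% ± 0.322 and the heavy to light strand ratio 85.9 ± 2.84 on this scale. Reads from either locus are in these sums, and how many came from chromosome 1 was not tested.

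Between the 2 pools, most mitochondrial genes differed little. Ratios are given as log2 of replicate 2 over replicate 1 of TMM-scaled expected counts. Past 1.5-fold were 2 of the 15 genes tested, mt-Nd3 (-1.37, lower in replicate 2) and mt-Nd4l (from a count of 0 in replicate 1, so that no fold is given), against 13.5% of all 18263 genes tested (7.49% higher and 6.05% lower in replicate 2). mt-Nd3 had 866.6 expected counts in replicate 1 and 485.5 in replicate 2, and mt-Nd4l had 0 and 165.9. Among genes with 1000 counts or more in both libraries, 0.0353% passed this fold. The 15 genes had a median of 0.09, beside -0.000318 over all genes tested, and the 7 without shared windows ran from 0.02 to 0.18 with a median of 0.15. Each of those 7 was therefore slightly higher in replicate 2, including both rRNAs (0.17 and 0.18).

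Both genes past 1.5-fold were among the 5 with at least 90% of windows shared. Gene and copy took opposite signs in every pair with counts on the copy. In the pairs of mt-Co1, mt-Atp6 and mt-Co3, the gene or the copy lay near 0. mt-Nd3 was at -1.37 while its copy Gm28438 was at 0.51, and their sum was at 0.19. mt-Atp6 was at -0.01 while Gm10925 was at 0.83, and their sum was at 0.11. mt-Co2 was at -0.18 while Gm28661 was at 0.29, with a sum at 0.08. mt-Nd4l was higher in replicate 2 while Gm10222 was at -0.25, and their sum, with 1440 and 1916 counts, was at -0.12. With copies added, 0 of the 15 passed 1.5-fold, and their range was -0.12 to 0.19.

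**Figure D4:**
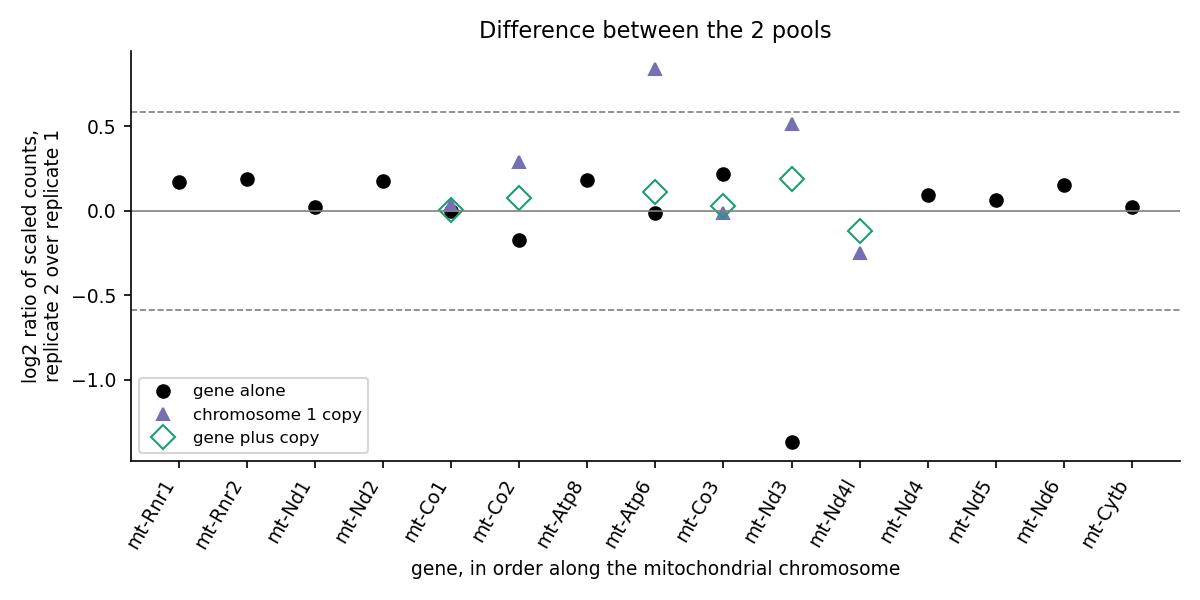
Log2 ratio of TMM-scaled expected counts, replicate 2 over replicate 1, for mitochondrial genes alone (black), their chromosome 1 copies (triangles) and gene plus copy (open diamonds); dashed lines mark 1.5-fold. mt-Nd3 alone lies at -1.37 and Gm10925 at 0.83, all sums lie between -0.12 and 0.19, and mt-Nd4l alone and the copy Gm28439, which had a count of 0 in at least 1 library, are not drawn.

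The credibility intervals of the libraries did not overlap for 9 of the 15 genes, against 26.3% of genes with 1000 counts or more in both libraries and 15.5% of genes at 1 TPM or more. All 9 were higher in replicate 2. The shares were not matched for depth, since mt-Nd3 and mt-Nd4l lay below 1000 counts in both libraries. The 9 genes held from 2029 counts (mt-Nd6, replicate 1) to 54019 (mt-Rnr2, replicate 2). Among genes with 1000 counts or more in both libraries, 1489 had intervals apart, and 864 of those were higher in replicate 2. These 864 were 15.3% of all genes at that depth. The 9 mitochondrial genes were the 7 without shared windows, mt-Nd2 and mt-Nd4, and none of the 5 genes with at least 90% shared windows was among them. These intervals hold the counting and division of reads in 1 library and no spread between pools, so separation says only that the libraries differed beyond that. The number was 7 by the FPKM intervals, by which mt-Nd1 and mt-Cytb, both at 0.02 on the log2 scale, overlapped. Their listed TPM was close between libraries, and the posterior mean TPM was lower than the listed TPM by unequal factors in the 2 libraries, as given above. The part of that offset in the separation was not tested.

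A chosen list of nuclear subunits of the same complexes gave a scale for the mitochondrial levels, which are given as deposited and then with copies added. Other nuclear subunits of these complexes were not examined here. In complex I the 7 mitochondrial genes had a median of 334 ± 25.1 TPM and the 7 nuclear core genes one of 157 ± 8.37 TPM. Of the mitochondrial genes, 5 stood above the highest nuclear one, Ndufv2, which binds an iron-sulfur cluster, at 244.9 and 248.1 TPM in replicates 1 and 2. With copies added all 7 did, mt-Nd3 and mt-Nd4l included, and the mitochondrial median was 479.0 ± 4.69 TPM. In complex III mt-Cytb, at 2027 ± 21.6 TPM, stood above all 4 nuclear genes, the highest of which was the core protein gene Uqcrc1 at 344.2 and 312.0 TPM. In complex IV the 3 mitochondrial genes had a median of 1146 ± 97.8 TPM and the 4 nuclear genes one of 523 ± 24.0 TPM, led by Cox4i1 at 672.8 and 642.6 TPM. With copies added the mitochondrial median was 2507 ± 93.7 TPM. In complex V the median was 4386 ± 171 TPM over 2 mitochondrial genes and 527 ± 1.21 TPM over 4 nuclear genes, led by Atp5b, the catalytic beta subunit, at 1858 and 1761 TPM. With copies added the mitochondrial median was 4798 ± 335 TPM. Both complex V genes and all 3 complex IV genes stood above the highest of their listed nuclear partners on both scales. None of the 19 nuclear genes passed 1.5-fold between the libraries, beside 13.5% of all genes tested. All 19 had 1000 counts or more in both libraries, and 0.0353% of all genes at that depth passed.

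Nuclear genes for the expression of the mitochondrial genome were present throughout. Of 45 listed, 44 matched by symbol, and all 44 reached 1 TPM in both libraries, with a median of 24.0 ± 1.01 TPM and none past 1.5-fold, beside 13.5% of all genes tested. Of the transcription genes, Tfam, which packages the DNA and activates its promoters, stood at 67.9 and 77.3 TPM in replicates 1 and 2. The RNA polymerase gene Polrmt stood at 33.3 and 36.4 TPM and the initiation factor gene Tfb2m at 18.5 and 20.1 TPM. These are the parts of the initiation complex, and their levels did not overlap. Mterf3, a member of the termination factor family, stood at 63.8 and 65.3 TPM, and Mterf1b was the lowest of the list at 2.97 and 3.80 TPM. Mterf1b has a close paralog, Mterf1a, and its expected counts were not whole.

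Of the genes for RNA processing, Hsd17b10, a subunit of mitochondrial RNase P, stood highest at 132.0 and 132.4 TPM in replicates 1 and 2. Fastk stood at 92.0 and 83.0 TPM and Grsf1, an RNA granule protein gene, at 85.6 and 79.7 TPM. Fastkd5, whose human protein acts on junctions without a tRNA, was the lowest of that group at 17.1 and 16.4 TPM. None of the 10 matched processing genes passed 1.5-fold between the libraries. Of all genes tested 13.5% did, and of those with 1000 counts or more in both libraries 0.0353% did. Of the genes for tails, stability and decay, Slirp stood highest of all 44 at 213.3 and 230.9 TPM, and its partner in mRNA stabilisation, Lrpprc, stood at 43.0 and 44.3 TPM. The exonuclease gene Rexo2 stood at 63.5 and 67.0 TPM and Pde12, which in human cells removes tails, at 10.2 and 10.6 TPM. All members of both groups lay below the mitochondrial rRNAs.

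Genes for base modification were the lowest group, with a median of 16.8 ± 0.665 TPM over 10 genes. The tRNA-modifying enzyme genes Trmu (30.6 and 28.2 TPM) and Mto1 (22.1 and 24.2 TPM) and the pseudouridine synthase gene Pus1 (18.6 and 18.4 TPM) stood highest and Gtpbp3 lowest (6.27 and 8.50 TPM). For the copying of mitochondrial DNA, the single-strand binding protein gene Ssbp1 stood at 137.9 and 153.1 TPM, Dguok, of nucleotide salvage, at 46.6 and 44.0 TPM and the polymerase gene Polg at 32.5 and 35.3 TPM. Its accessory subunit gene Polg2 was the lowest there at 7 and 7.2 TPM. The tRNAs that several of these enzymes act on could not be measured in these libraries.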

How the data were processed

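Total RNA-seq libraries of E11.5 forebrain (2 biological replicates from separate tissue collections, per the labels) were analysed as deposited. Reads were aligned to mm10 with the GENCODE M4 annotation, per the deposited text notes; which aligner and quantifier were run, and how strand was handled, was not given in the sources used here. Gene tables from the authors hold expected counts, which divide reads that fit several transcripts and need not be whole. The deposited TPM scale those counts by effective length over all entries with spike-ins. FPKM, also deposited, scale fragments by length and depth. Posterior means and credibility bounds of unstated level are further columns, per the file headers. The transcript tables, used as an alternative, also give the authors' percent of a gene's TPM per transcript.

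Names, coordinates and sequences came from GENCODE M21 of the same build by stable identifier, and all 37 mitochondrial genes matched. Entries with numeric identifiers (26248) and spike-ins (97) stayed out of ratios. Nuclear copies were sought with BLASTN 2.17.0 among annotated transcripts (90% identity and 100 bases or more). Expected counts were scaled by TMM (edgeR 4.0.16, R 4.3.3; factors 1.00 and 0.999), with a prior of 0.5 counts and at least 10 counts summed, and DESeq2 1.42.0 size factors were an alternative. With 1 group and 1 library a side no test was run. The steps were checked on simulated data. With 2 libraries, SDs are rough, and they cover pools rather than single embryos. TPM precision is limited by counts, which were 2029 or more for every gene without shared windows.

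The genes and lists were chosen with earlier results of these data known. All 37 genes could be named, with the 10 copies of highest mean TPM, the 3 highest and the lowest member of each sub-list of nuclear genes, and Polrmt, Tfam, Tfb2m, Lrpprc and Slirp. Some genes that this took are not named, and Gm28439, Gm43743, AC124578.3 and Mterf1a were named after their values were seen. Prorp had no match by symbol.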

Additional observations from a re-analysis of the deposited data

How the results depend on the processing

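Of 58 alternative settings, 44 left the value within the spread of the replicates (counts of genes within 1.5 times) and 14 moved it. With expected counts in place of TPM, the rRNA share was 17.3%, the protein-coding share 82.7%, the library share 0.968%, the heavy to light ratio 110.2 and the abundance of copies 34.5% of that of mitochondrial genes (47.5% by TPM). With the TPM of nuclear copies added, these were 6.59%, 93.4%, 3.04% and, for the ratio, 90.2. The ratio was 54.9 over protein-coding genes alone, and the library share 2.36% with Ensembl genes alone in the total. Copies aligned over at least 300 bases held 45.3%. The median log2(TPM + 1) of the 15 genes with windows was 9.95, and 10.42 by posterior mean TPM. Adding the counts of the chromosome 1 copy to each gene, an alternative chosen after seeing the data, gave 0 genes past 1.5-fold in place of 2. Leaving out either replicate gave 9.30% to 10.1% for the rRNA share, 89.9% to 90.7% for the protein-coding share, 2.02% to 2.10% for the library share, 58.9 to 62.9 for the ratio, 9.84 to 10.06 for the median log2 level, 14 to 15 for detected genes, 46.2% to 48.7% for copies and 23.3 to 24.7 TPM for the median of nuclear expression genes. Intervals apart numbered 7 in place of 9 by FPKM. No paired analysis was possible because there was 1 group. Genes without shared windows held 2029 counts or more in each library, whereas for mt-Co2, mt-Atp6, mt-Co3, mt-Nd3 and mt-Nd4l the division between gene and copy rested on 1 to 6 windows. No tRNA gene was long enough for a read window.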
